A study of Bubalus bubalis with 8 samples.

Results

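The transcriptome of buffalo mammary epithelial cells (MECs) 2 h post heat stress was set against that of unstressed MECs (CTR). Primary MECs from the mammary gland of 1 adult female riverine buffalo were used at passage 10, in collagen-treated 12-well plates. CTR cells stayed at 37 °C throughout, and the 2 h cells were held at 42 °C for 1 h and then at 37 °C for 2 h before they were harvested with trypsin. A single plate served as control and another as treated, and nothing in the descriptions says that separate cultures were used. Each condition had 1 array, so no value below has a replicate check, no p-value is given, and precision is limited by the single array on each side. Of the 24839 gene names on the bovine array, 10696 entered the comparison, because a probe of theirs was well above background on the CTR or the 2 h array and lay outside a dark rectangle on the CTR array. These genes came from 16446 of 43653 probes, of which 10791 were well above background on both arrays, 5348 at 2 h alone and 307 in CTR alone.

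Cells that meet a damaging temperature switch on heat shock transcription factors, which drive chaperones that hold and refold unfolded proteins, while most other transcription and translation slows. Inducible HSP70 and the small heat shock proteins are the classical products, and their messages decline as the cells recover. Mammary epithelium also makes milk proteins and fat, and it responds to injury or infection with chemokines, alarmins and other defence genes that NF-kB controls.

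Levels below are log2 intensities minus the 75th percentile of the array, so a level of 0 is the 75th percentile of all probes, and levels are compared only between arrays for the same probe. A probe not well above background is called dim. Its fold is then a bound, written as at least N-fold, against the higher of its own level and the lowest level measured well above background on that array, which was -0.20 in CTR and -1.95 at 2 h. Genes past 3-fold are called higher or lower. A gene that was dim in CTR could only be higher or without a fold, and its change could not fall under 0. The counts and medians of lists made up mostly of such genes therefore describe the arrays and support nothing further.

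The 2 arrays differed in how many probes they detected and in overall intensity. In CTR 26.5% of probes were well above background and at 2 h 40.2%, the highest share of the 8 arrays, and the intensity at the 75th percentile was 212.3 in CTR and 327.3 at 2 h. CTR was on the same slide as the 8 h, 12 h and 24 h arrays, and 2 h on another with 30 min, 4 h and 16 h. Slide and heat therefore cannot be told apart in the comparison with CTR, and values against the 4 h and 16 h arrays of the same slide are given beside it. Repeat spots of a bright probe had an SD of 0.21 (log2, 14 probes) in CTR and 0.29 (20 probes) at 2 h, which gives a change an error of 0.36 from spots alone.

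Markers of the labelled cell type were present on both arrays. Of 8 luminal epithelial markers 7 were well above background in CTR and 8 at 2 h, with KRT18, a luminal keratin, dim in CTR at -2.51 and at 0.99 at 2 h. Of 5 basal markers 4 were well above background on both, and TP63, a basal transcription factor, was dim on all 7 arrays with usable intensities. Summed over the list, the luminal signal, in units of the 75th percentile of the array, was 353 in CTR and 153 at 2 h, and the basal signal was 483 and 236. Markers of other cells were present too. Myeloid leukocyte markers were well above background for 1 of 8 in CTR and 7 of 8 at 2 h, with ITGAM, an integrin of myeloid cells, dim on both, and their summed signal was 5.88 in CTR and 145 at 2 h. Pan-leukocyte markers went from 2 to 6 of 6, with sums of 6.26 and 136, and T or NK markers from 1 to 7 of 7, with sums of 4.86 and 11.5. HCLS1 at -1.89, CD2 at -1.44 and CD8A at -0.43 were well above background at 2 h. These levels lie under -0.20, the lowest that CTR measured well above background, so part of the counts follows from that limit. Among markers measured on both arrays AIF1 was at 1.66 and 1.07 and CD3D at 1.73 and 1.27, both lower at 2 h. PTPRC, at 1.72 and 3.11, and ITGB2, at 1.17 and 4.82, were higher. B cell markers were at 3 of 6 on both arrays, with sums of 11.4 and 7.22 and with CD79B and MS4A1, which define B cells, dim on both. Fibroblast markers were at 3 of 8 on both, with sums of 8.47 and 1.71, and endothelial markers at 0 and 1 of 6, with sums of 1.05 and 2.29. In these bulk samples fewer cells of a type and less RNA per cell cannot be told apart, and the part of leukocytes in the results below was not tested.

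**Figure D1:**
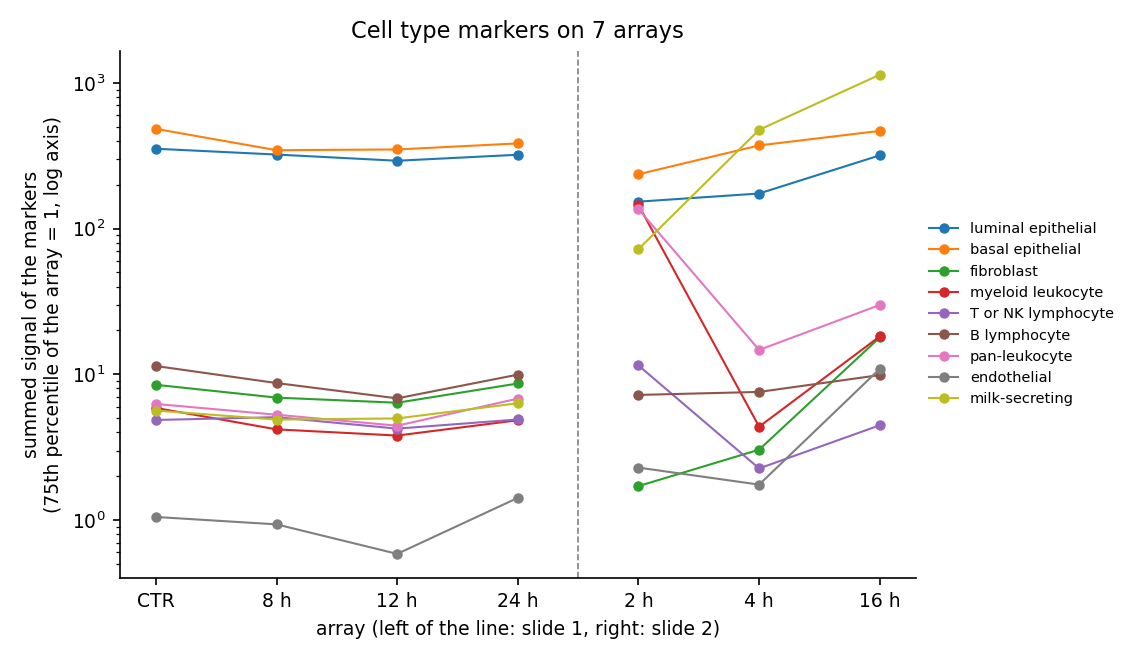
Summed signal of cell type marker lists (log axis, in units of the 75th percentile of each array) on the 7 arrays with usable scanner intensities, 1 array per condition. The myeloid sum was 145 at 2 h and between 3.8 and 18.2 on the other arrays, whereas the luminal sum was lowest at 2 h, 153.

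Short stretches of the probes behind the largest changes, and behind genes whose probes gave different values, show what was hybridised. Each line gives the first 30 of 60 bases, 5′ to 3′ as the array file lists them, all in lower case since no motif was searched. IL8 (CXCL8) led the chemokines and IL1B the interleukins, COL4A1 and LAMA4 led the falls, PAEP is a whey protein, HSPA1A the inducible HSP70 and KRT8 a luminal keratin. Positions are those of the file on the bovine assembly Btau_3.1, and which exon or untranslated region they hit was not determined here.
IL8, chr6:91793390-91793449, plus strand: aatcctgcttttttgttttcggtttttgta
IL1B, chr11:48249630-48249692, minus strand: aataactgtggaaccaatttccgggttaga
PAEP, chr11:107171376-107171429, plus strand: ctggggcctcctgcttggggccgctcctcc
HSPA1A, no position listed: gtagtattcatgccaaactcaagctatttt
COL4A1, chr12:82951471-82951530, minus strand: gcaattaggcaggtcaagctgtagtttcat
LAMA4, chr9:40018165-40018224, plus strand: tcttctttgcctactcggaagaatgtctgc
KRT8, chr5:30005397-30005456, plus strand: ctttcgcccatgaccccacctaaaagccaa
VAV1 first probe, chr7:16271650-16271709, minus strand: tgccagctgctcaacaacctgctgccccat
VAV1 second probe, chr7:16104173-16104232, minus strand: atttataacacatgcatttcctcctgggtc
HSPB8 first probe, chr17:59096092-59096151, minus strand: ctagtggtgttgtgtatatgggtgggacgt
HSPB8 second probe, chr17:59096509-59096568, minus strand: atcttatcttgcagctaatgcaagagttac

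Of the 10696 genes, 544 (5.09%) were at least 3-fold higher at 2 h and 836 (7.82%) at least 3-fold lower. Of the higher genes 358 were dim in CTR and 186 were measured on both arrays, and of the lower genes 200 were dim at 2 h and 636 were measured on both. The median change of all genes was 0.00, which includes at 0 the 2136 genes whose bound was under 1-fold, and that of the 7395 genes measured on both arrays -0.35. Among the latter 2.52% were higher and 8.6% lower. The balance of higher and lower genes depended on the scaling. Higher genes were 39.4% of calls with the 75th percentile, 52.0% (661 higher, 609 lower) with that percentile taken over bright probes, 75.4% (721 and 235) with normexp background correction and 79.5% (1072 and 277) with the median of all probes, which moved the median change of all genes to 0.27. For this reason each gene family below is read against all genes, and a family whose side changed under another scaling is named as such. The shares of all genes, 5.09% higher and 7.82% lower, are the background of the list counts below, apart from lists mostly dim in CTR.

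The 15 largest rises among genes with a symbol were mostly genes of inflammation and of leukocytes, all dim in CTR. IL8, the neutrophil chemokine CXCL8, was at -2.51 in CTR, the lowest level on that array, and at 6.81 at 2 h, at least 128-fold higher. CD83, a surface protein of activated antigen-presenting cells, went from -2.51 to 6.56 (at least 108-fold), and G0S2, an inhibitor of fat breakdown, from -2.51 to 6.52 (at least 105-fold). CCL5, a chemokine for T cells, was at -0.26 and 6.32 (at least 91.5-fold) and LAPTM5, a lysosomal protein of blood cells, at -2.51 and 6.24 (at least 86.8-fold). These were followed by the neutrophil alarmin S100A12 (at least 80.6-fold), the interferon-inducible IFITM2 (78.4), the TNF receptor TNFRSF1B (75.5), the granule proteoglycan SRGN (74.5) and the macrophage chemokine CCL3 (71.2), each as a lower bound. IL1B was at -2.51 and 5.88 (at least 67.3-fold) and TNF at -2.51 and 5.83 (at least 65.3-fold), both early inflammatory cytokines. The list closed with LTF, the milk iron-binding protein lactoferrin (64.8), and the chemokines CXCL2 and CCL4 (61.5 each), again as lower bounds.

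The 15 largest falls were of mixed function, and basement membrane genes led them. COL4A1, a type IV collagen chain, was at 3.27 in CTR and dim at -2.09 at 2 h, at least 37.3-fold lower. LAMA4, a laminin chain, was measured on both arrays at 3.81 and -0.91, 26.3-fold lower. IGFBP5, an IGF binding protein, was at 2.66 and dim at -3.51 (at least 24.5-fold lower). C25H16orf11 followed (at least 19.6-fold lower), then the adhesion molecule NCAM1, at 2.09 and dim at -3.01 (at least 16.4), and the calcium-binding CABP2, at 3.83 and -0.20 (16.4). The other falls lay between 11.6-fold and 14.3-fold, namely GPR123 (at least 14.3), PTPN5 (13), C3H1orf194 (12.8), VAV1 (12.7), FAT3 (at least 12.2), GPX8 (12.2), BTN2A1 (12), PLA2G2A (11.7) and AVPR2 (11.6). VAV1, a signalling protein of blood cells, had a second probe that moved the other way, and with normexp background correction its change was 3.37 upward, so it has no settled direction.

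**Figure D2:**
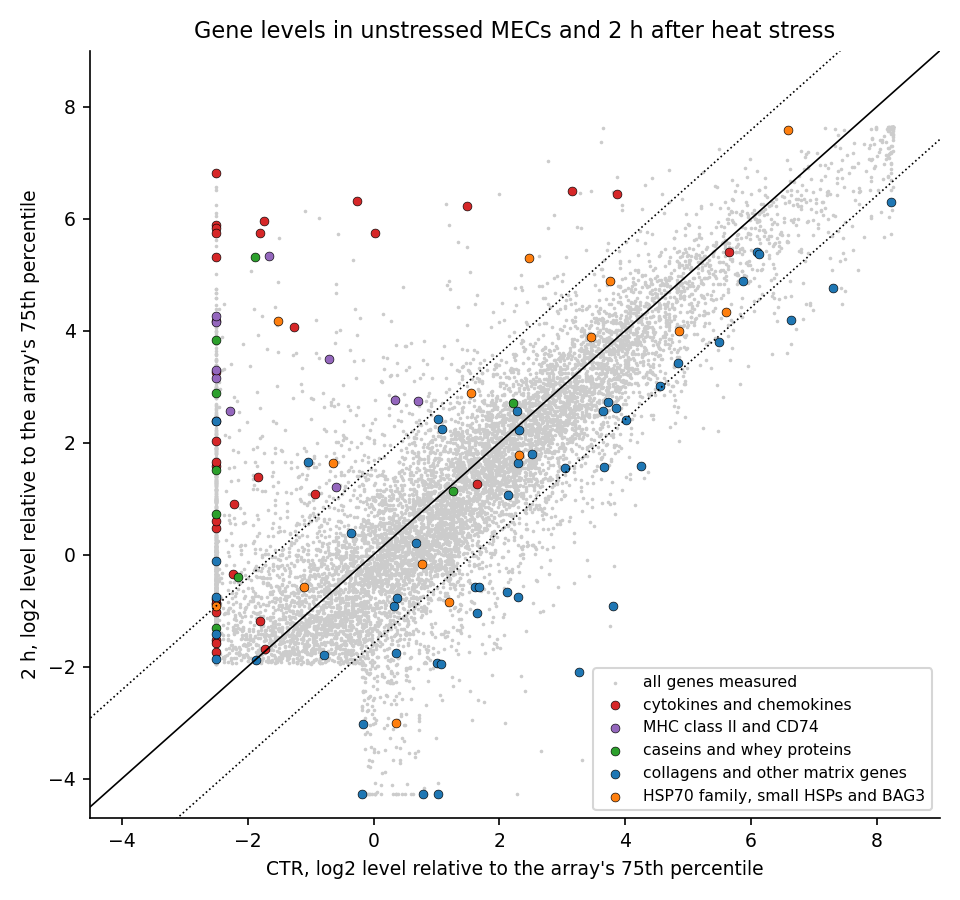
Level of each measured gene in CTR (horizontal axis) and at 2 h (vertical axis), both as log2 intensity minus the 75th percentile of the array, 1 array per condition, with 5 groups of genes coloured, a solid line of equal level and dotted lines at 3-fold. The column of points at -2.51 holds genes at the lowest level of the CTR array, where IL8, IL1B and TNF stand, and matrix genes such as COL4A1 and LAMA4 lie under the lower dotted line.

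Few of the classical chaperones were 3-fold higher 2 h post heat stress. Of 9 measured HSP70 family genes 1 was higher and 1 lower, with a median change of -0.53, which was -0.27 against all genes with median scaling and -0.05 with normexp. HSPA1A, the inducible HSP70, was at 2.47 in CTR and 5.30 at 2 h, 7.14-fold higher, and its 4 probes changed by 1.10 to 2.84 (log2). On the 4 h, 8 h and 24 h arrays its levels were 4.27, 7.03 and 1.05, so 2 h was not the highest array. HSPA6, another strictly inducible HSP70, was dim in CTR at -2.51 and at -0.92 at 2 h, below what the CTR array could measure, so it has no fold. HSPA8, the constitutive HSP70, was at 5.60 and 4.34, 2.39-fold lower and short of 3-fold, and the brain-enriched HSPA12A was at least 4.92-fold lower.

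Among 6 measured small heat shock proteins and BAG3, 2 were higher and 1 lower, with a median change of 1.06. HSPB8, which works with BAG3 in protein quality control, was dim in CTR at -1.52 and at 4.18 at 2 h, at least 20.7-fold higher by the first probe printed above, and its other probes, dim in CTR at -2.51 and at -0.17 and -0.11 at 2 h, stood only just above what the CTR array could measure. CRYAB, alpha-B crystallin, was dim at -0.64 and reached 1.63 (at least 3.53-fold), while HSPB6 was 4.13-fold lower, at 1.20 and -0.85. HSPB1 was at 6.59 and 7.59 (1.99-fold) and BAG3 at 3.76 and 4.89 (2.2-fold), both short of 3-fold, and the 3 BAG3 probes changed by 1.13, 0.48 and -1.95.

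None of 17 HSP90, HSP60 and co-chaperone genes passed 3-fold. HSPH1, the HSP110 partner of HSP70, was at 1.55 and 2.89 (2.55-fold higher), HSP90AA1 at 6.19 and 5.79, HSP90AB1 at 6.22 and 6.56, and the mitochondrial HSPD1 at 4.56 and 3.28. The list's median of -0.10 turned to 0.30 above all genes with median scaling, 0.40 with normexp and 0.07 with bright probes. Of 8 TRiC/CCT chaperonin subunits, which fold actin and tubulin, none passed 3-fold, and the median of -0.20 became 0.24, 0.40 and 0.01 under the same settings. Of 28 DNAJ co-chaperones none was higher and 2 were lower, DNAJC27 (5.02-fold) and DNAJB4 (3.76-fold), with a median of 0.00. ER chaperones and unfolded protein response genes had 1 of 28 higher, the stress transcription factor DDIT3 (CHOP), dim in CTR at -2.51 and at 2.48 at 2 h, at least 6.39-fold. HSPA5, the main ER chaperone BiP, was at 5.36 and 6.27 (1.88-fold).

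Both cold-inducible RNA-binding proteins, which are known to respond to cooling and to decline with warmth, were lower. RBM3 was at 4.54 in CTR and 2.94 at 2 h, 3.02-fold lower, and CIRBP at 2.18 and 0.59, 3.01-fold lower. Both lie just past 3-fold, by less than the spot error of 0.36.

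Immediate early genes, which encode short-lived transcription factors and regulators induced within minutes of a stimulus, were higher for 13 and lower for 2 of 33 measured, with a median change of 0.70, and 29 of the 33 were measured on both arrays. NR4A1, an orphan nuclear receptor, was at 0.47 in CTR and 4.78 at 2 h (19.7-fold), FOSB at 1.49 and 5.49 (15.9-fold) and SGK1, a stress-responsive kinase, at 1.22 and 4.74 (11.5-fold). ATF3 was at 1.34 and 4.43 (8.54-fold) and JUNB at 2.78 and 5.84 (8.33-fold). Other members of the same families did not pass 3-fold. FOS was at 3.65 and 3.24, EGR1 at 2.57 and 2.56 and JUN at 4.06 and 3.88, although another JUN probe changed by 2.42. The 2 lower members were CYR61, at 3.76 and 0.90 (7.27-fold), and CTGF, at 4.95 and 2.46 (5.64-fold), matricellular proteins that are targets of YAP and of serum.

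Many cytokine, chemokine and NF-kB genes were higher at 2 h. Most members of the 3 lists were dim in CTR and could not have been lower. Their counts and medians are therefore a description, and the counts are not set against the 5.09% of all genes. Of 47 interleukin, TNF and colony-stimulating factor genes on the array, 16 were measured and 8 were higher. Of these 16, 15 were dim in CTR. Besides IL1B and TNF, IL1A was at -2.51 and 5.32 (at least 45.9-fold) and CSF2, the growth factor GM-CSF, at -2.51 and 3.26 (at least 11-fold). The receptor antagonist IL1RN, measured on both arrays, was at 3.87 and 6.45 (5.97-fold higher). IL6 was dim in CTR and too low at 2 h for a fold, at -2.51 and -0.88.

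Of 33 chemokines on the array 20 were measured, 12 were higher, and the median change was 2.78. IL8, CCL5, CCL3, CXCL2 and CCL4 were dim in CTR, but other members were measured on both arrays. CXCL3 was at 0.03 and 5.75 (52.5-fold), GRO1 (CXCL1) at 1.48 and 6.22 (26.8-fold), and the monocyte chemokine CCL2 at 3.15 and 6.49 (10.1-fold). These 3 attract neutrophils and monocytes and needed no bound. NF-kB subunits, inhibitors and feedback genes were higher for 12 of 27 measured, with a median of 1.37. NFKBIA, the inhibitor that NF-kB induces to end its own activity, was at 2.78 and 7.03 (18.9-fold), and TRAF1 was at 1.53 and 5.05 (11.5-fold). NFKB1 was at 0.80 and 3.82 (8.12-fold) and RELB at 0.52 and 3.72 (9.14-fold), both subunits of the factor, whereas the subunit RELA was at 4.17 and 4.45. CXCL10, a chemokine that interferon induces, was dim in CTR and had no fold. NFKBIZ (at least 29.2-fold) and the mitochondrial superoxide dismutase SOD2, at -0.86 and 3.52 (at least 13.2-fold), were dim in CTR.

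Part of the antigen presentation genes were higher as well. MHC class I and peptide loading genes were higher for 8 of 18, with a median change of 0.89, but over the 10 measured on both arrays the median was -0.04. BOLA-NC1, a non-classical class I gene, was at 1.15 and 6.27 (34.9-fold) and BOLA at 3.65 and 7.62 (at least 15.7-fold, saturated at 2 h), and the immunoproteasome subunits PSMB9 and PSMB8 were at least 14.5-fold and 14.2-fold higher. B2M, the invariant class I light chain, was at 6.13 and 5.96 by its brightest probe, and its other 3 probes changed by 1.10 to 3.35. Class I genes form a family of close copies that a probe may not tell apart. MHC class II and CD74 were higher for 9 of 10 measured, with a median of 3.42, and 8 of the 10 were dim in CTR. BOLA-DRA, the class II alpha chain, was at -1.66 and 5.33 (at least 46.2-fold), and CD74, the invariant chain, at -0.70 and 3.50 (at least 13-fold). The lysosomal enzymes IFI30 and CTSS, which prepare class II peptides, were at least 22.1-fold and 20.4-fold higher. The summed signals of myeloid and pan-leukocyte markers, 145 and 136 at 2 h against 5.88 and 6.26 in CTR, moved with these genes, and their part in the result was not tested.

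Interferon response genes gave a result that depended on the bound for dim probes. Of 32 measured 7 were higher and none lower, with a median of 0.00, but 14 of them were dim in CTR and could not have been lower. Over the 18 measured on both arrays the median was 0.00, and without the bound the list's median was 1.30 above all genes. IRF1, a transcription factor that interferon gamma and NF-kB induce, was at -1.54 and 4.10 (at least 19.6-fold) and ISG15, a ubiquitin-like protein, at 3.87 and 6.75 (7.33-fold). IFIT2 (at least 7.99-fold) and IRF8 (at least 7.14-fold) were the other leading members, while MX1, an antiviral GTPase, was at 2.53 and 3.64 (2.16-fold).

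Many genes of leukocytes themselves were dim in CTR and well above background at 2 h. Of 28 measured myeloid genes 19 were higher, but 24 of the 28 were dim in CTR and could not have been lower. Over the 4 measured on both arrays the median change was 0.25. SPI1, the myeloid transcription factor PU.1, was at -2.51 and 5.28 (at least 44.6-fold), and TYROBP, a signalling adaptor, at -0.32 and 5.26 (at least 43.8-fold). CD68, a macrophage lysosomal protein, was at -0.29 and 4.38 (at least 23.8-fold), CD14, a receptor for bacterial lipopolysaccharide, at -2.51 and 4.11 (at least 19.8-fold), and the kinase LYN was at least 32.7-fold higher. These genes stand in the myeloid list, and which cells carried them was not tested. Pan-leukocyte genes were higher for 14 and lower for 2 of 26, of which 20 were dim in CTR. Over the 6 measured on both arrays their median change was 0.79. CXCR4 (at least 22.6-fold), CD52 (22.4) and CD53 (20.5) rose past 3-fold, each from a dim CTR value. PTPRC, the leukocyte common antigen CD45, was at 1.72 and 3.11 (2.61-fold), short of 3-fold, and PTPN7 was at 3.63 and 0.93 (6.48-fold lower). The other gene counted as lower was VAV1, whose probes moved in opposite directions, so it has no settled direction. Lymphocyte genes were higher for 4 and lower for 2 of 21, with a median of 0.00, but 14 of the 21 were dim in CTR and could not have been lower. Over the 6 measured on both arrays the median change was -0.62. Without the bound the list's median was 1.68 above all genes, so the value of 0.00 depended on the bound. CCR7, a homing receptor, was at least 4.94-fold higher, whereas CD4 was at 3.49 and 1.28 (4.66-fold lower) and PAX5 at least 3.92-fold lower.

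Alarmins and acute phase genes of mammary defence were higher for 13 of 26 and lower for none, 21 of the 26 being dim in CTR. DEFB5, an antimicrobial defensin, was at -2.51 and 5.01 (at least 37-fold) and S100A8, part of calprotectin, at -1.56 and 4.43 (at least 24.6-fold). The complement factor CFB was at least 23.9-fold higher and DEFB1 was at -2.51 and 4.07 (at least 19.2-fold). LYZ (lysozyme), at 2.89 and 3.32, and SAA3, the mammary serum amyloid, at 3.81 and 4.57, did not pass 3-fold.

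Some milk protein genes were higher at 2 h than in CTR, and most were higher still on the 4 h and 16 h arrays of that slide. Of 9 measured caseins and whey proteins 4 were at least 3-fold higher than in CTR, 7 were dim in CTR and 2 had no fold. PAEP, the whey protein beta-lactoglobulin, measured -1.89 in CTR, 5.31 on the 2 h array, and 7.51 and 8.22 on the 4 h and 16 h arrays, at least 45.4-fold higher at 2 h than in CTR. CSN3, kappa-casein, was at -2.51, 3.83, 5.86 and 7.39 on the same arrays (at least 16.3-fold), and LALBA, alpha-lactalbumin, at -2.51, 1.51, 4.12 and 4.86 (at least 3.27-fold). CSN2, beta-casein, was at 2.22 in CTR and 2.71 at 2 h, a 1.4-fold change by its brightest probe, against 6.63 at 4 h and 7.98 at 16 h. The array at 8 h, on the slide of CTR, had PAEP at -1.83. Summed over 6 milk-secreting markers the signal measured 5.64 in CTR and 72.3, 476 and 1137 on the 2 h, 4 h and 16 h arrays, and it was between 4.89 and 6.33 on the other 3 arrays of the CTR slide. The milk-secreting sum thus separated the slides over the 7 usable arrays, and slide and heat cannot be told apart.

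Milk fat genes were higher for 8 and lower for 1 of 25, but 12 of the 25 were dim in CTR and could not have been lower. FABP4, a fatty acid carrier, was at -0.56 and 5.72 (at least 60.2-fold) and had 5.59 and 5.72 on the 4 h and 16 h arrays. PLIN2, which coats lipid droplets, was at 0.14 and 3.08 (7.69-fold), and SCD, a fatty acid desaturase, at 3.38 and 5.45 (4.19-fold), with 7 probes that changed by -0.96 to 2.86. CD36 (at least 6.18-fold) and ACSL1 (at least 5.94-fold), which take up and activate fatty acids, were dim in CTR. GPAM, the first enzyme of triglyceride synthesis, was at 0.62 and -1.37 (3.98-fold lower), and FASN, fatty acid synthase, at 4.17 and 4.42. Cholesterol synthesis and uptake genes were higher for 5 of 29 and lower for none, with a median of 0.67. NSDHL was at 0.43 and 2.57 (4.41-fold), SQLE at 2.67 and 4.79 (4.33-fold), HMGCS1 at 1.51 and 3.28 (3.41-fold), and FDFT1 was 3.84-fold higher, all enzymes of the sterol pathway.

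Structural genes of the epithelium went both ways. Of 18 measured keratins 4 were higher and 5 lower, with a median change of -1.21, which was -0.55 against all genes with normexp. KRT8, the main luminal keratin, was at 6.99 and 4.37 (6.14-fold lower), and all 4 of its probes changed by -3.67 to -2.62 (log2). KRT5, the basal keratin, was at 7.91 and 6.04 (3.66-fold lower), and KRT79 (5.82), KRT86 (3.78) and KRT35 (at least 6.93) were lower too. KRT15, a keratin of basal progenitors, was at 3.80 and 6.47 (6.35-fold higher). KRT6C, a keratin of stressed and wounded epithelium, was at -2.51 and 4.58 (at least 27.5-fold), KRT78 was 12.4-fold and KRT4 at least 4.97-fold higher. KRT14, KRT19 and KRT7 were at 5.58 and 4.30, 7.07 and 5.84, and 5.68 and 4.48, none past 3-fold. Of 42 epithelial junction genes only GJB2, a gap junction connexin, passed 3-fold, at 7.43 and 4.77 (6.32-fold lower), and the list's median of -0.52 was at -0.10 against all genes with median scaling and at 0.09 with normexp. CDH1 (E-cadherin), at 3.41 and 3.53, and EPCAM, at 2.52 and 2.40, differed by less than the spot error.

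Many matrix genes were lower. Of 35 collagen chains on the array 14 were measured, 6 were lower and none higher, with a median of -1.39. COL1A1, the main fibrillar collagen, was at 1.64 and -1.05 (6.46-fold lower) and COL7A1, the anchoring fibril collagen, at 7.31 and 4.76 (5.87-fold lower), beside COL4A2 (at least 6.69-fold) and COL3A1 (4.77-fold). The collagen chaperone SERPINH1 (HSP47), a heat shock protein by induction, was at 2.12 and -0.67, 6.92-fold lower. Non-collagen matrix genes were lower for 15 and higher for 2 of 35, with a median of -1.23. It became -0.79 against all genes with median scaling and -0.56 with normexp. LAMB1, a laminin chain, was at 4.25 and 1.59 (6.33-fold lower), FN1, fibronectin, at 8.23 and 6.29 (at least 3.84-fold, saturated in CTR), and TGFBI at 6.64 and 4.19 (5.45-fold). PLOD2 (8.35-fold), FBLN2 (at least 8.14), CHODL (at least 7.92) and BGN (7.7) were further falls, while LOXL4 (at least 5.95-fold) and PCOLCE (at least 3.63-fold), enzymes or helpers of collagen maturation, were higher. Fibroblast markers such as COL1A1 and COL3A1 stand in these lists, and the fibroblast summed signal was 8.47 in CTR and 1.71 at 2 h. Its part in the result was not tested.

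Contractile and mesenchymal genes were lower for 10 and higher for 1 of 26, with a median of -0.86. With median scaling it was -0.42 against all genes, and with normexp -0.24. ACTG2, a smooth muscle actin, was at 5.48 and 2.20 (9.7-fold lower), TAGLN, transgelin, at 7.44 and 4.48 (7.78-fold) and ACTA2, smooth muscle alpha-actin of myoepithelium, at 7.41 and 5.24 (4.5-fold). TAGLN3 (11.1-fold), CALD1 (6.87) and TPM1 (6.38) were lower too. S100A4, also a gene of motile leukocytes, was at 3.28 and 6.46 (9.04-fold higher), and VIM, vimentin, was at 7.48 and 6.56. Matrix proteases and inhibitors were higher for 5 (14.3%) and lower for 3 (8.57%) of 35, with a median of 0.00. The shares of all genes were 5.09% and 7.82%, and 14 of the 35 were dim in CTR. The lysosomal proteases CTSD, at 4.69 and 6.87 (4.54-fold), and CTSB (3.63-fold), and the urokinase receptor PLAUR (3.02-fold) were higher, and ADAMTS17 was at least 8.25-fold lower. The IGF axis had 2 of 17 higher and 6 lower. IGF2R (4.68-fold) and IGFBP3, at 5.23 and 6.83 (3.03-fold), were higher, and IGF2 (8.69-fold), IGFBP2 (8.2-fold) and IGFBP6, at 8.12 and 5.68 (5.41-fold), were lower beside IGFBP5.

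Some survival and death genes passed 3-fold in each direction. Of 40 BCL2 family, caspase and death receptor genes 5 (12.5%) were higher and 2 (5%) lower, with a median of 0.00. Among all genes 5.09% were higher and 7.82% lower, so the list as a whole is not read as having moved. BCL2A1, an NF-kB target that blocks apoptosis, was at -2.51 and 4.58 (at least 27.3-fold), and the anti-apoptotic BCL2 (at least 7.15-fold) and MCL1 (4.4-fold) were higher together with the pro-apoptotic PMAIP1 (at least 7.41-fold). BIRC5 (survivin) was 3.78-fold lower, and the pro-apoptotic BAX was at 1.82 and 2.31. Antioxidant and NRF2 target genes were higher for 4 (11.4%) and lower for 1 (2.86%) of 35, and 8 of the 35 were dim in CTR. By bounded change SOD2, given above with the NF-kB genes, came first. It was followed by SRXN1 (at least 9.33-fold), PGD, an enzyme of the pentose phosphate pathway, at 3.45 and 6.49 (8.18-fold), and the haem oxygenase HMOX1, at 2.98 and 4.63 (3.15-fold).

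Glycolysis genes had 6 of 30 higher and 3 lower. Regulators and isoforms such as PDK4 (at least 12.7-fold), PFKFB3 (at least 12), HK3, a hexokinase of myeloid cells (at least 9.84), and ALDOC (4.64) were higher, while the core enzymes TPI1, at 7.62 and 5.44 (4.53-fold), and PKM2 (3.75) and the kinase PDK1 (3.48) were lower. PKM2 was 0.09 higher (log2) with the dark rectangle kept in. The list's median of -0.41 stood at 0.02 above all genes with median scaling and at 0.18 with normexp. Of 78 measured cytosolic ribosomal proteins 5 were lower and none higher, with a median of -0.73, which came to -0.07 against all genes with quantile normalization and with normexp. The 5 were RPS29 (at least 4.21-fold, yet 0.74 higher on the log2 scale with the dark rectangle kept in), RPS24 (3.91), RPL3L (at least 3.89), RPS15A (3.5) and RPL17 (3.32). Many ribosomal protein genes have processed copies that a probe may share. Cell cycle and DNA replication genes were lower for 11 of 67 and higher for none, with a median of -0.87, which was -0.30 against all genes with normexp. The kinetochore genes NUF2, at 1.82 and -0.66 (5.61-fold), and NDC80 (4.95), the spindle gene ASPM (at least 5.26), the transcription factor MYBL2, at 4.06 and 1.74 (4.97), and the CDK inhibitor CDKN2C (4.75) led them, while CDKN1A (p21) was at 4.77 and 5.47 and CCND1 at 4.36 and 5.37.

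Other housekeeping lists stayed near all genes, and their side depended on the scaling. Mitochondrial ribosomal proteins had 2 of 70 lower, MRPL1 (at least 4.78-fold) and MRPS30 (3.88-fold), and a median of -0.29 that became 0.09 with median scaling and 0.16 with normexp. Oxidative phosphorylation subunits had 1 of 75 lower, COX6B2 (4.03-fold), and a median of -0.24 that became 0.20 and 0.40. Of 36 proteasome subunits 2, the immunoproteasome genes above, were higher and 1, PSMA3 (3.07-fold), was lower, with a median of -0.18 that became 0.22 and 0.35. None of 54 translation factors passed 3-fold, and the median of -0.07 became 0.31 and 0.44. As a check on background, 162 olfactory receptor genes are on the array, 2 of them were measured and neither had a fold. The qPCR reference genes of the study were at changes of 0.12 (EEF1A1), -0.76 (RPS23) and -0.95 (RPL4), which spans the position of all genes. Of 17 endothelial genes 3 were measured and none passed 3-fold.

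**Figure D3:**
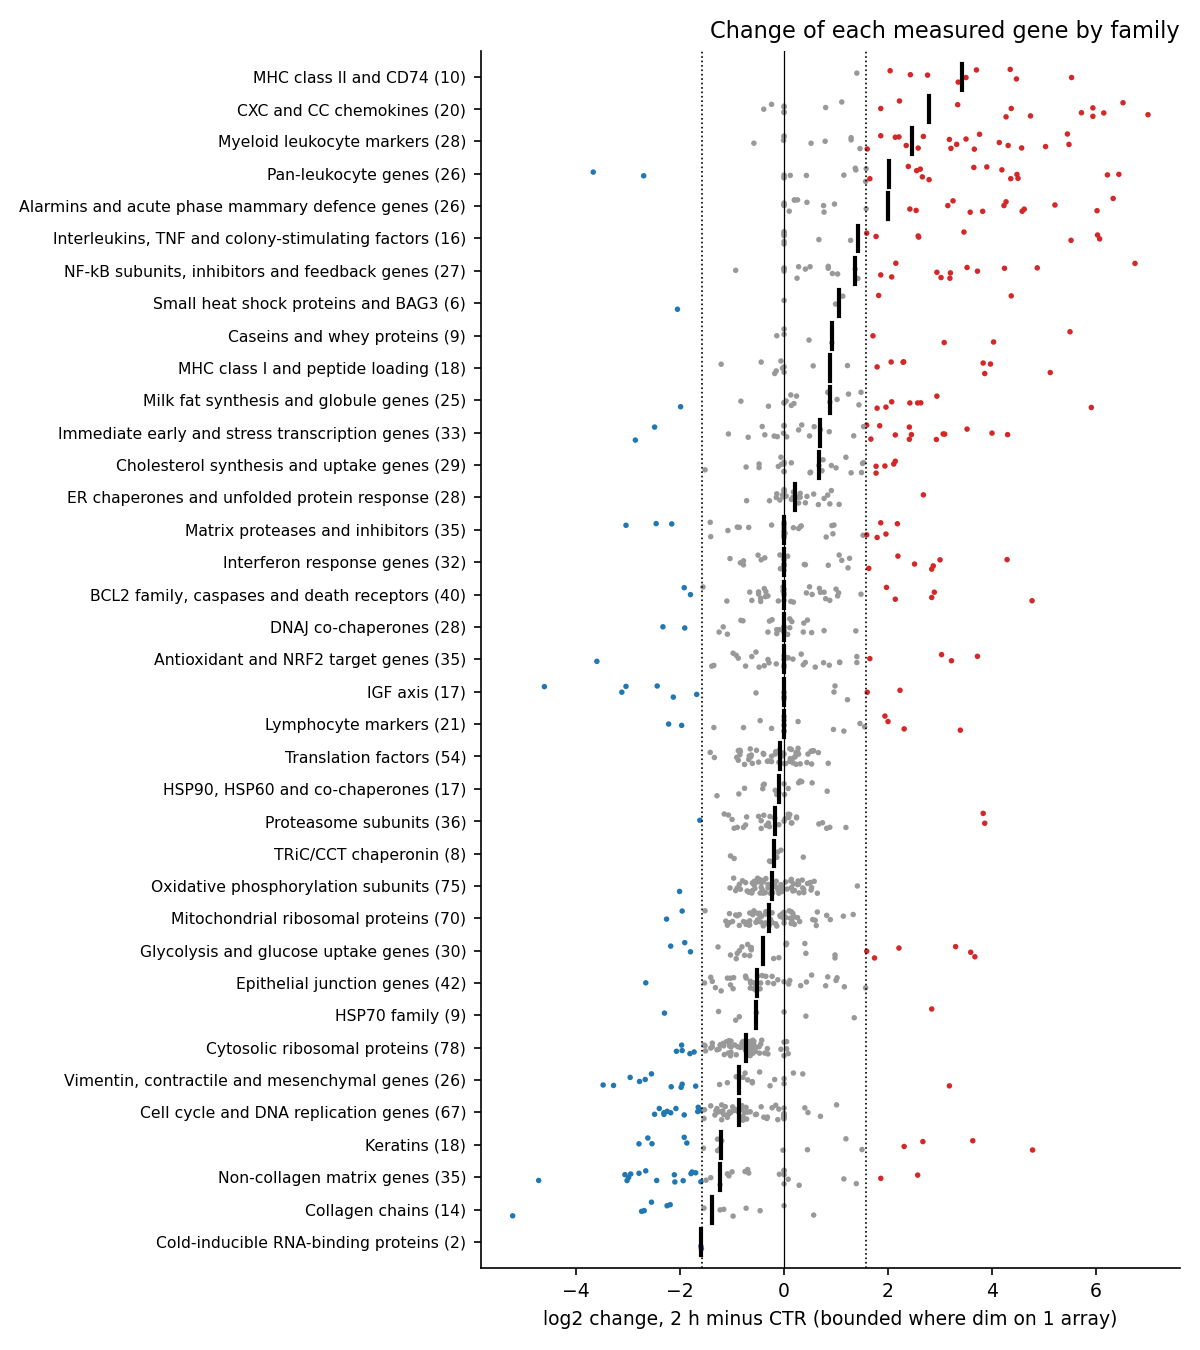
Log2 change, 2 h minus CTR, of each measured gene (points, red and blue past 3-fold, with bounds for dim probes) in each list, with the list's median as a bar, the number measured in brackets and dotted lines at 3-fold, 1 array per condition. Medians ran from 3.42 for MHC class II and 2.78 for chemokines to -1.39 for collagens and -1.59 for the 2 cold-inducible genes, around an all-gene median of 0.00.

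The 2 h array was then set against the 4 h and 16 h arrays of its own slide. Both comparisons share the 2 h array, so their values are given side by side and are not independent of each other or of the comparison with CTR. They used the genes and probes chosen for 2 h and CTR, so genes dim on both of those arrays never entered. A gene dim at 4 h or 16 h could only be higher at 2 h or without a fold. The counts below are therefore partly fixed by this choice and describe the arrays. Against 4 h, 716 of 10568 genes (6.78%) were at least 3-fold higher at 2 h and 122 (1.15%) lower. Against 16 h, 481 of 10481 (4.59%) were higher and 431 (4.11%) lower. Many inflammatory genes were also higher than on the 4 h and 16 h arrays of the slide. The 30 min array was not part of this comparison, and in the deposited values given below IL8, IL1B, TNF and CD83 lay close to 2 h there. IL8 was at 6.81 at 2 h and dim at -4.04 at 4 h, at least 384-fold higher at 2 h, IL1B was at least 201-fold and TNF at least 195-fold higher than at 4 h, and CD83 was at 6.56 and dim at -4.04. Of the 20 measured chemokines 13 were higher and 1 lower than at 4 h, of 16 interleukin, TNF and colony-stimulating factor genes 9 were higher, of 27 NF-kB genes 16, of 28 myeloid genes 22, of 26 pan-leukocyte genes 19 and of 10 class II genes 9, with none lower in the last 5 lists. Against 16 h the counts were smaller. Chemokines had 11 higher and 2 lower, interleukin, TNF and colony-stimulating factor genes 7 higher, NF-kB genes 12 of 26, myeloid genes 17 higher and 2 lower, and pan-leukocyte genes 15 and 2. Class II genes had 5 of 10 higher, with a median of 1.58 against 3.97 in the comparison with 4 h, and class I genes 2 of 18 higher against 9. Alarmins had 13 higher and 3 lower than at 4 h, and 8 higher and 5 lower of 25 than at 16 h. The myeloid marker sum was 4.37 at 4 h and 18.2 at 16 h, and the pan-leukocyte sum 14.7 and 29.9, so these markers stood higher at 2 h than at 4 h and 16 h. Their sums were not computed for 30 min, also on this slide, so whether these markers stood as high there was not tested. Immediate early genes were higher than at 4 h for 9 of 33 and than at 16 h for 10, with 1 lower, and with NR4A1 at -0.41 at 4 h.

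Other groups gave other counts on the same slide. Of 9 caseins and whey proteins none was higher and 9 were lower at 2 h than at 4 h, with a median of -2.60, and 8 were lower than at 16 h, with a median of -3.56. Of 25 milk fat genes 2 were higher and 6 lower than at 4 h, with a median of -0.87. Against 16 h 1 milk fat gene was higher and 8 were lower, with a median of -0.81. Cholesterol genes, 5 of which were higher than in CTR, had none of 29 past 3-fold against 4 h and 2 higher and 1 lower against 16 h, and small heat shock proteins had none of 6 against either. HSPA1A was at 5.30 at 2 h, against 4.27 at 4 h. Of 14 collagens 1 was lower than at 4 h, with a median of -1.14, and 8 were lower than at 16 h, with a median of -1.84. Of 32 non-collagen matrix genes 4 were higher and 3 lower than at 4 h, and 2 were higher and 8 lower than at 16 h. Of 26 contractile genes 1 was higher and none lower than at 4 h, and 5 were lower than at 16 h. COL4A1 was dim at 2 h at -2.09 and at -0.36 at 4 h, and LAMA4 was at -0.91 and -0.59. Of 67 cell cycle genes none passed 3-fold against 4 h, with a median of -0.63, and 1 of 66 was higher and none lower than at 16 h, with a median of 0.00. Neither cold-inducible gene passed 3-fold, with medians of -0.66 and -0.65. TPI1 was at 7.23 at 4 h, against 5.44 at 2 h. LTF was at 5.82 at 2 h and 5.71 at 4 h, and the 4 h levels of G0S2, S100A12 and IFITM2 were 2.24, 4.48 and 2.17, so these were well above background at 4 h too.

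Over the 7 usable arrays some genes separated the slides and others the 2 h array. COL4A1 was at 3.27, 2.75, 2.51 and 2.66 on the CTR, 8 h, 12 h and 24 h arrays of one slide, and at -2.09, -0.36 and 1.31 on the 2 h, 4 h and 16 h arrays of the other. KRT8 was at 6.99, 6.74, 6.39 and 6.55 on the first slide and at 4.37, 4.15 and 4.71 on the second, and LAMA4 between 2.50 and 3.81 and between -0.91 and -0.59. For these 3 genes no array of the second slide reached the lowest of the first. FABP4 separated the slides the other way, dim on the 4 arrays of the first slide and between 5.59 and 5.72 on the 3 of the second. NFKBIA was highest at 2 h, at 7.03, with 4.29 and 5.07 on the 4 h and 16 h arrays and between 1.43 and 2.78 on the CTR slide. CD83 was dim on each usable array but 2 h. CRYAB and HSPA1A were highest at 8 h, at 5.67 and 7.03, on the slide of CTR.

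**Figure D4:**
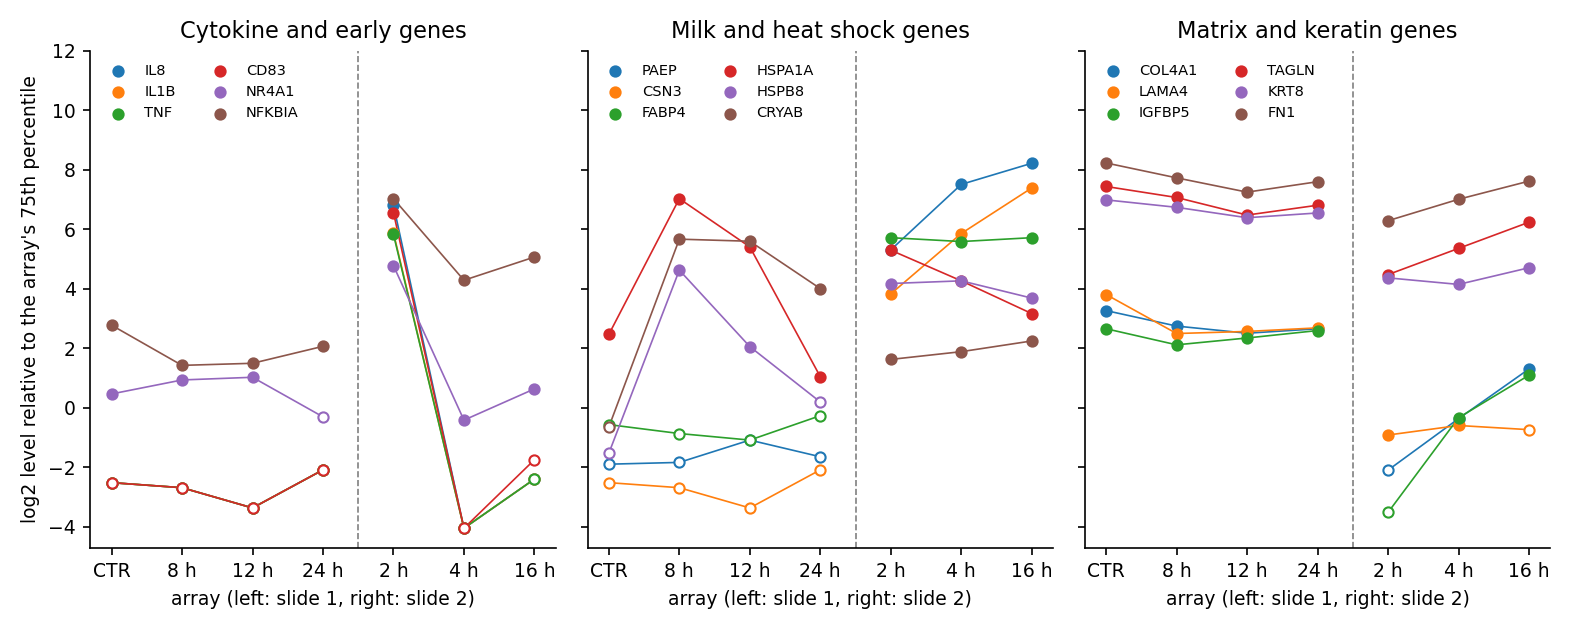
Level of selected genes (log2 intensity minus the 75th percentile of the array) on the 7 arrays with usable scanner intensities, slide 1 left and slide 2 right of the dashed line, 1 array per condition, open points for dim probes. IL8, IL1B, TNF and CD83 stood up at 2 h alone, PAEP, CSN3 and FABP4 on each array of slide 2, and COL4A1, LAMA4 and KRT8 on each array of slide 1.

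**Figure D5:**
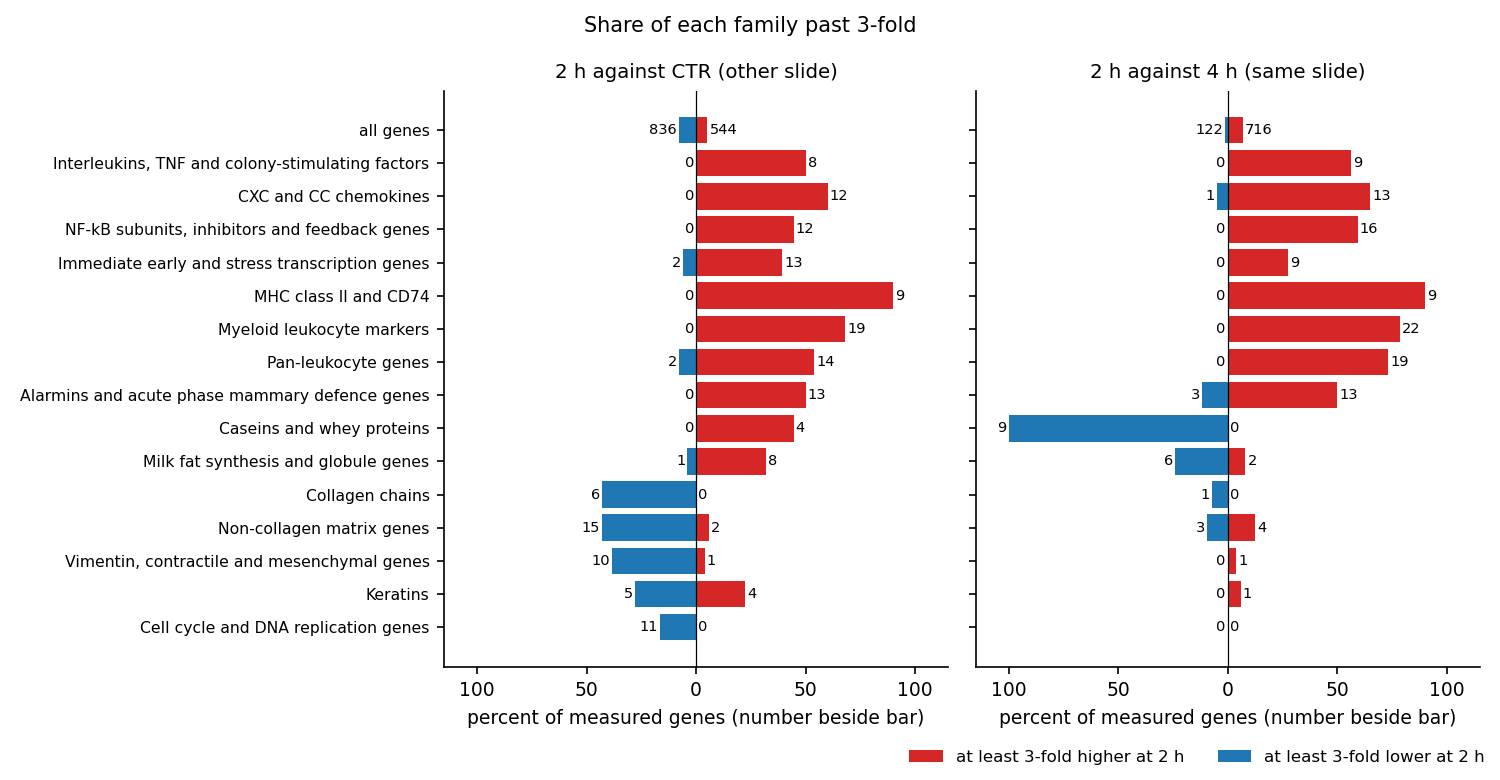
Share of the measured members of selected lists at least 3-fold higher (red) or lower (blue) at 2 h, in percent, with the number of genes beside each bar, against CTR on the left and against 4 h of the same slide on the right. Myeloid genes had 19 and 22 higher in the left and right panels, caseins and whey proteins 4 higher on the left and 9 lower on the right, and collagens 6 lower on the left and 1 on the right.

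The scanner intensities of the 30 min array on this slide were faulty, with 1462 outlier-marked spots and a repeat spot SD of 1.96 (log2, 5 probes). Only the deposited log2 values were read there, and whether they carry the fault was not tested. In them the difference, 30 min minus 2 h, was -0.39 for IL8, 0.67 for IL1B, 0.10 for TNF, 0.37 for CD83 and 0.72 for NR4A1. It was 3.49 for HSPA6, 0.58 for HSPA1A, -2.42 for LTF and -1.09 for KRT8. The cytokine values at 30 min and 2 h were within 0.67 of each other on the log2 scale, whereas those of HSPA6 and LTF were farther apart.

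Several probes stood for 3771 of the genes, and the range of their changes had a median of 0.68 (log2). In 543 genes the probes ranged over 3-fold or more, and in 4 genes probes passed 3-fold in both directions. Of 289 higher genes with several probes, all probes were past 3-fold in 68 and a probe was lower in 14. Of 189 lower genes, all probes were past 3-fold in 73 and a probe was higher in 15. VAV1 was the case among the largest changes, at 2.65 and -1.02 by its first probe and at -2.51 and 3.26 by its second, changes of -3.67 and 3.45 with the bound. The call of HSPB8 rested on 1 of 3 probes, since the others gave bounds of 0.02 and 0.09 (log2) in the same direction. KRT8 and HSPA1A kept their side over 4 probes each.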

How the data were processed

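Total RNA of buffalo MECs was labelled with Cy3 and hybridised to a bovine 4x44K array of 43803 spots, 1 array per condition. Spot intensities were deposited by the authors as processed with Feature Extraction 9.5.3.1, and the mean and local background intensities deposited beside them were used for normexp. A second deposited file of the authors holds log2 values made in GeneSpring with a 75th percentile shift, whose rows were centred on the median of the 8 arrays. No column without a sample was used.

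From the processed intensities, log2 values minus the 75th percentile of the array over the 43653 probes outside the control spots were computed here (Python 3.11.15, pandas 2.3.3, numpy 2.4.6). Outlier-marked spots and a dark rectangle of 3371 spots on the CTR array were left out, spots of a probe were averaged, and 1 probe stood for a gene, the one with the highest mean level over both arrays. Genes whose bound was under 1-fold (no fold) entered medians at 0, and 25 genes saturated on both arrays had no fold, were not called and entered medians at their measured change. No test was made. Alternatives used the median, bright probes, quantile normalization or normexp with an offset of 50 (R 4.3.3, limma 3.58.1), other filters, no bound, all probes of a gene, the spots left out, the deposited log2 values without a bound, and 2-fold.

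Genes were named by a rule: the 15 largest rises and 15 largest falls, then genes of 40 lists, with up to 4 each way past 3-fold first. The members and lists were chosen with earlier results of these data known. Of 8309 gene names with a symbol, 6983 matched a symbol of the RefSeq buffalo annotation and 4 a synonym. Files of the 30 min array were read for the deposited log2 values. Some members counted in the lists are not reported here by name.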

Additional observations from a re-analysis of the deposited data

How the results depend on the processing

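The number of genes at least 3-fold higher, 544, was 1072 with median scaling, 187 among probes well above background on both arrays, 1153 without the bound for dim probes, 1147 with the deposited log2 values, 826 with the dark rectangle kept in and 930 at 2-fold. The number lower, 836, was 277 with median scaling, 235 with normexp and 1759 at 2-fold. Lists with a median at least 1 above all genes, 8 of 40, numbered 13 with median scaling and 17 both without the bound and with the deposited values, and those at least 1 below, 4, numbered 1 with median scaling and 1 with normexp. Most of the 8 lists held mainly genes dim in CTR, whose change could not fall under 0, so these medians describe the arrays. Among probes measured on both arrays 0 of the 15 largest rises and 9 of the 15 largest falls could be called, since the others were dim on 1 array. The cause of the other moves was not tested. Of 264 named genes past 3-fold, 219 kept their direction and 3-fold with median scaling, 215 with normexp, 250 with bright probes, 258 with quantile normalization and 263 with the deposited values. Reversed were VAV1, at 3.37 with normexp, and PKM2, at 0.09, and RPS29, at 0.74, with the dark rectangle kept in. No paired analysis was possible because each condition had 1 array. The lowest level above background, -0.20 in CTR and -1.95 at 2 h, limits how large a rise could be measured, and the counts against 4 h and 16 h were not recomputed under the alternatives.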
